A study of Homo sapiens with 4 samples.

Results

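The genes described here encode the plasminogen activators, their cell-surface receptor and serpins that inhibit them: PLAU, PLAT, PLAUR, SERPINE2 and SERPINB2. They were taken by gene symbol, as every probe set whose platform annotation names exactly 1 of these 5 genes. The rule found 4 genes of 19775 and 8 probe sets of 54613. These were 2 probe sets for PLAU, 3 for PLAUR, 1 for PLAT and 2 for SERPINE2, numbered below within each gene from the highest mean over the 4 arrays, set 1, downwards. No probe set matched SERPINB2, which encodes plasminogen activator inhibitor 2, and it was not analysed here. Expression was measured on 4 Affymetrix HG-U133 Plus 2.0 arrays in the UM-UC-3 line, which was grown out of a human bladder carcinoma. The GFP-RhoGDI2 cells (2 arrays) had been stably transfected with GFP fused to RhoGDI2, the product of ARHGDIB, which is called a metastasis suppressor in the title of the series. The GFP cells (2 arrays) carried GFP alone, from the empty vector, with the plasmid pBABE PURO for selection. Both lines were sorted for fluorescence and harvested in log phase growth. In each group, replicates A and B were prepared at different times, and each GFP-RhoGDI2 array was paired with the GFP array of the same preparation. The description of the GFP-RhoGDI2 samples speaks of the control transfection, so groups were taken from the titles and genotypes. The sources used here do not say whether a line is 1 clone or a pool, or whether each preparation was transfected anew. A difference between the lines therefore cannot be told apart from one that arose when each line was made. The p-values rest on how far the 2 preparations disagree on that difference, combined with the same spread over all tested probe sets.

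Plasminogen activators are serine proteases that cut the inactive plasminogen into plasmin, which degrades fibrin and matrix proteins and activates other proteases and growth factors. Urokinase, the product of PLAU, works mainly on cell surfaces, bound to the receptor encoded by PLAUR, whereas the tissue-type activator encoded by PLAT is best known for dissolving fibrin clots. Serpins stop these enzymes by forming covalent complexes with them; SERPINE2 encodes protease nexin-1, which inhibits thrombin, urokinase and the tissue-type activator. In bladder cancer this system has been studied for its part in invasion.

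Promoter windows are shown for PLAU, PLAUR and SERPINE2, because the results below turn on these 3 genes. Each window of 300 bases runs from 250 bases before to 50 bases after an annotated start, on the gene's own strand, and comes from RefSeq (GRCh38.p14). Which start the cells used was not measured. Capitals mark matches on either strand to CCAAT and to TGANTCA, a loose pattern for AP-1 sites in which N is any base. No match overlapped a match to another motif searched. The PLAU windows lie at chr10:73910360-73910659 and chr10:73910882-73911181, plus strand, the PLAUR window at chr19:43670120-43670419, minus strand, and the SERPINE2 windows at chr2:224038591-224038890 and chr2:224031429-224031728, minus strand.
PLAU start 1: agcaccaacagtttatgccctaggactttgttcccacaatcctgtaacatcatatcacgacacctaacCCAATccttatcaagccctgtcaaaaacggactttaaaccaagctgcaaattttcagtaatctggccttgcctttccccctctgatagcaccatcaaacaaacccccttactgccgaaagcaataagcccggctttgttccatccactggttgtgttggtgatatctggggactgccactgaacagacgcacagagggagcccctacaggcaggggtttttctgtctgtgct
PLAU start 2: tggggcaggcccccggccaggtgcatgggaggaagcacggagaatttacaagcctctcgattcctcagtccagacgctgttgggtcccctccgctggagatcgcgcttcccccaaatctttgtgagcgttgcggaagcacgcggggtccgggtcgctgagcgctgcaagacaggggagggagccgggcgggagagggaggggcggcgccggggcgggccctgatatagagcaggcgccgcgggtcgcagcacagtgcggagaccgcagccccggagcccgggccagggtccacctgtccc
PLAUR: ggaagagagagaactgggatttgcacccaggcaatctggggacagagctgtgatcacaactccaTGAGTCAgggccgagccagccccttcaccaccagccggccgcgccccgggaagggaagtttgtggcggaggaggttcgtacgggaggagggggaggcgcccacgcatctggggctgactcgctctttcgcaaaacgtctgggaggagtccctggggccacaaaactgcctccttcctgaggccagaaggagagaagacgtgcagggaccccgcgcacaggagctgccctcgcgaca
SERPINE2 start 1: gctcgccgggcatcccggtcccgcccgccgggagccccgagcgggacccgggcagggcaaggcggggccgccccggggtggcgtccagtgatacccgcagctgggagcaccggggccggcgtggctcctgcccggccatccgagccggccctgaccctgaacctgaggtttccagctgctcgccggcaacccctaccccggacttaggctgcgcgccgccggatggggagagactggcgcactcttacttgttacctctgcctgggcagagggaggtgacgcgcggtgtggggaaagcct
SERPINE2 start 2: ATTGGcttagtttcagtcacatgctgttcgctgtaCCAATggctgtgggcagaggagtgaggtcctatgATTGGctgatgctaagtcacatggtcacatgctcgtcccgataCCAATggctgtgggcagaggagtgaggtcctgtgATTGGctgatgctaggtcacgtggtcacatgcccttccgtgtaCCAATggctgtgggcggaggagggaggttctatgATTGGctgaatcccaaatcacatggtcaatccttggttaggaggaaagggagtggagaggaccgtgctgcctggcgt

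The pattern TGANTCA occurred once, as TGAGTCA, at position -186 of the PLAUR window (counted from the start, with -1 the base before it). Of 35116 windows of this length, 7.71% held the pattern. The second SERPINE2 window held 7 matches to CCAAT, a count reached by 0.0228% of windows, while 34.6% of windows held at least 1. Its matches lie in copies of a repeated stretch, so they are not independent occurrences. The first PLAU window held 1 CCAAT match. The GC box GGGCGG occurred 3 times in the second PLAU window, a count reached by 15.8% of windows, 2 times in the first SERPINE2 window and 1 time in the second, while 45% of windows held at least 1. The TATA box TATAAA, found in 11.5% of windows, occurred in none of the 5. The letters GGAAG, the core of ETS sites, occurred 4 times in the PLAUR window, a count reached by 6.52% of windows, 3 times in the second PLAU window and 1 time in the second SERPINE2 window, while 71.9% of windows held at least 1. The E-box CACGTG occurred once, in the second SERPINE2 window, and in 7.26% of all windows. The GC content of the first and second windows was 48.7% and 70% for PLAU and 73.7% and 54% for SERPINE2, with 64% in the PLAUR window and a median of 58.7% over all windows. A match describes letters only and shows no binding.

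Values are log2 expression from RMA, which corrects background, normalizes arrays and summarises the probes of a set, and differences are GFP-RhoGDI2 minus GFP. A probe set was tested when its mean over the 4 arrays reached 4.637, the median of that mean over all probe sets, and it was called when limma's adjusted p was under 0.05, with preparation as a block. Of the 8 probe sets, 6 were tested and 4 called, 3 higher and 1 lower. Over all 27307 tested probe sets, 7.64% were called, 4.63% higher and 3.01% lower. The 6 tested probe sets come from 3 genes, and the members were chosen with earlier results of these data known. The comparison of these shares is therefore not a test of the family. Arrays within a group correlated at 0.996 across probe sets and arrays of different groups at 0.991 to 0.992, and array medians ran from 4.62 to 4.65. The introduced gene was higher: ARHGDIB, on its brightest probe set, read 11.94 and 11.58 in GFP-RhoGDI2 cells, against 6.51 and 6.27 in GFP cells. Its other tested probe sets differed by 0.94 (adjusted p = 0.00794 with limma) and -0.02 (adjusted p = 0.953 with limma). The number of arrays limits the precision. Detection calls were not analysed here, so a value under 4.637 is not shown to be above background. Passing the filter does not show it either, as the filter level is a median over probe sets. In RNA from a whole culture, a change in the share of expressing cells and a change in RNA per cell cannot be told apart.

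**Figure D1:**
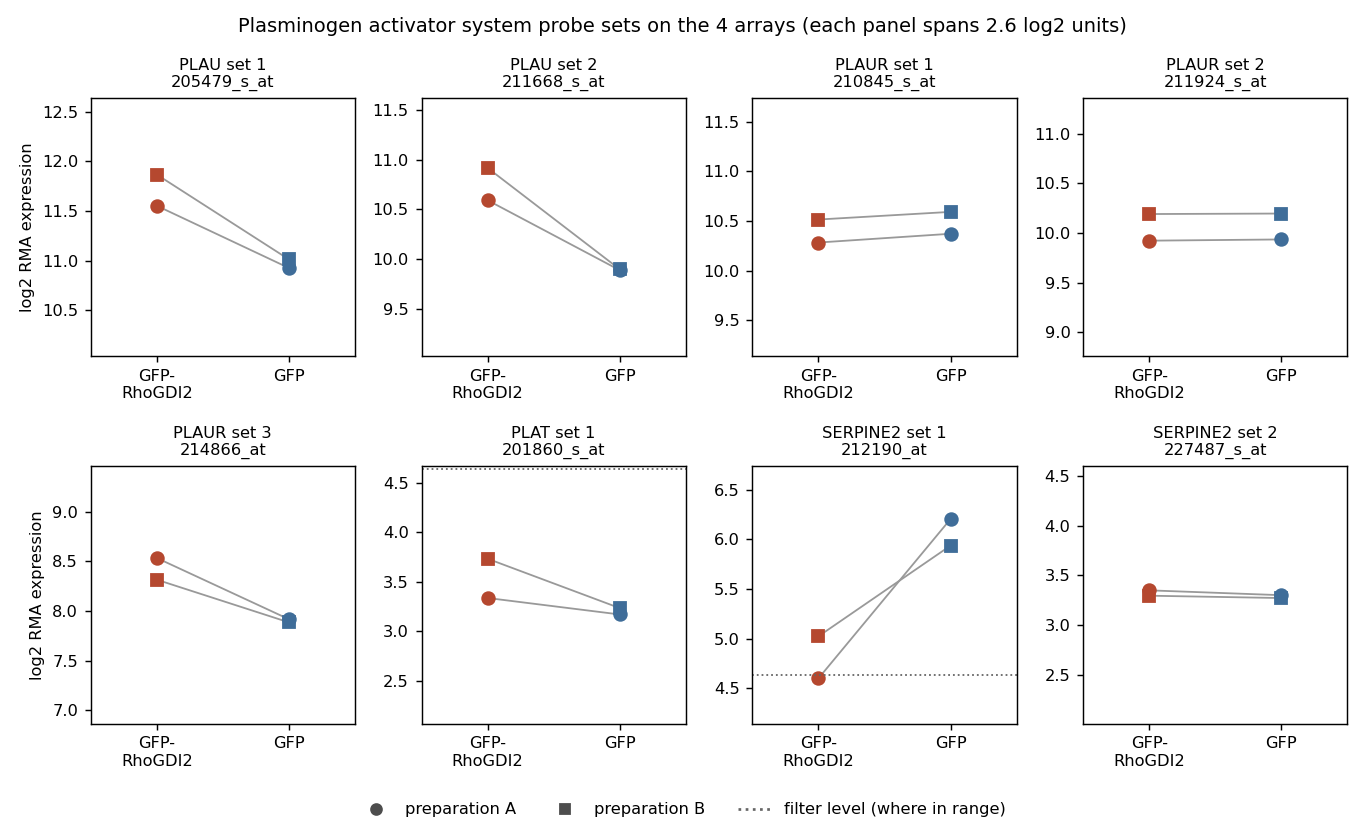
Log2 RMA expression (vertical axis) of the 8 probe sets, 1 panel each, in GFP-RhoGDI2 cells (left) and GFP cells (right); circles are preparation A, squares preparation B, grey lines join the arrays of a preparation, and the dotted line is the filter level of 4.637. Both PLAU probe sets were higher in both preparations, SERPINE2 set 1 was lower in both, and PLAUR sets 1 and 2 were higher in preparation B than in A in both lines.

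Among the activators, PLAU was higher in the GFP-RhoGDI2 cells on both of its probe sets. Set 1 read 11.55 and 11.87 in GFP-RhoGDI2 cells A and B, against 10.93 and 11.01 in GFP cells. The lowest GFP-RhoGDI2 value was above the highest GFP value, so the groups did not overlap. With 2 arrays a group this is a weak criterion, and the share of all probe sets that meet it was not counted here. PLAU rose by 0.74 here (SE 0.103, 95% interval 0.48 to 1.0, adjusted p = 0.0175 with limma), or 1.67-fold with an interval of 1.40 to 2.00. Set 2 read 10.59 and 10.92 in GFP-RhoGDI2 cells, against 9.89 and 9.90 in GFP cells, and it rose by 0.86 (SE 0.113, adjusted p = 0.0148 with limma), or 1.82-fold. Both sets showed a larger difference in preparation B, 0.86 and 1.02, than in preparation A, 0.63 and 0.71. The GFP arrays lay close together and the GFP-RhoGDI2 arrays further apart: the means of set 1 were 11.71 ± 0.22 in GFP-RhoGDI2 and 10.97 ± 0.06 in GFP cells (SD, n = 2 each). By size, PLAU was number 266 among the 585 genes called higher, and 3.08% of tested genes had a larger difference in either direction. Without the GFP-RhoGDI2 B array and the block, both calls were lost, at differences of 0.58 and 0.70 (adjusted p = 0.128 and 0.0832 with limma). That of set 1 was also lost without GFP A (0.70, adjusted p = 0.0821) and without GFP B (0.78, adjusted p = 0.0527). Both identifiers end in _s_at, which marks probe sets whose probes can match several transcripts, so no PLAU value is free of that class.

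PLAT, the other activator gene, was low in both lines. Its 1 probe set read 3.34 and 3.73 in GFP-RhoGDI2 cells, against 3.17 and 3.23 in GFP cells. These values lie near the lower quartile of each array, 3.49 to 3.50, and under the filter level, so PLAT was not tested. The difference was 0.17 in preparation A and 0.50 in preparation B. With no filter, the mean difference of 0.33 had a 95% interval of 0.04 to 0.63 and an adjusted p of 0.251 with limma.

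For PLAUR, which encodes the urokinase receptor, the probe sets disagreed. Sets 1 and 2 showed levels that overlapped between the lines. Set 1 read 10.28 and 10.52 in GFP-RhoGDI2 cells, against 10.37 and 10.59 in GFP cells, a difference of -0.08 (95% interval -0.31 to 0.14, adjusted p = 0.613 with limma). Set 2 read 9.92 and 10.19 in GFP-RhoGDI2 cells, against 9.94 and 10.20 in GFP cells, a difference of -0.01 (95% interval -0.24 to 0.22, adjusted p = 0.964). On both, the preparation B arrays of the 2 lines were the high ones. Preparation B exceeded A by 0.23 and 0.26 in the same fit, with adjusted p = 0.441 and 0.407 (limma). Over all tested probe sets, limma called 0 between preparations, with 3102 at an unadjusted p under 0.05 and 367 called with an intensity trend.

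PLAUR set 3 read 8.53 and 8.32 in GFP-RhoGDI2 cells, against 7.92 and 7.89 in GFP cells. The set rose by 0.52 (SE 0.0998, 95% interval 0.28 to 0.77, adjusted p = 0.0383 with limma), or 1.44-fold. Its differences were 0.62 in preparation A and 0.43 in preparation B. Its interval lies above those of the other PLAUR probe sets; a test of the difference between probe sets was not run. This call was close to the threshold. It was lost without the preparation block (adjusted p = 0.0568), with no filter (0.0685) and without any 1 array (0.107 to 0.221 with limma). The mean of the 3 probe sets differed by 0.14 (adjusted p = 0.210). The identifiers of PLAUR sets 1 and 2 end in _s_at, and that of set 3 does not. Which PLAUR transcripts each set matches was not analysed here.

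**Figure D2:**
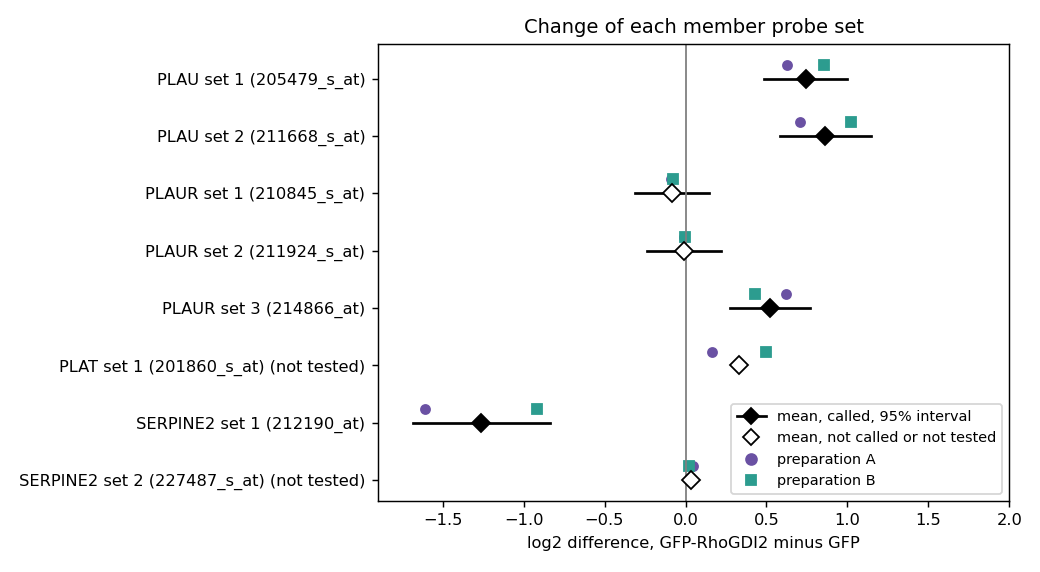
Log2 difference, GFP-RhoGDI2 minus GFP (horizontal axis), of each probe set; diamonds are means over both preparations, filled where called, bars are 95% intervals from limma, circles are preparation A and squares preparation B. The PLAU intervals lie above 0, that of SERPINE2 set 1 lies below 0, from -1.69 to -0.84, and only 1 of the 3 PLAUR intervals excludes 0.

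Among the inhibitors, SERPINE2 was lower in the GFP-RhoGDI2 cells on the probe set that could be tested. Set 1 read 4.60 and 5.02 in GFP-RhoGDI2 cells, against 6.21 and 5.94 in GFP cells. The means were 4.81 ± 0.30 in GFP-RhoGDI2 and 6.07 ± 0.19 in GFP cells (SD, n = 2 each). SERPINE2 fell by 1.26 on the log2 scale (SE 0.171, 95% interval -1.69 to -0.84, adjusted p = 0.0163 with limma), a 2.4-fold difference with an interval of 1.78 to 3.22. The difference was -1.61 in preparation A and -0.91 in preparation B, the reverse order of PLAU. By size it was number 24 among the 406 genes called lower, and 1.09% of tested genes had a larger difference in either direction. The call held without each array in turn and without the block, with differences from -1.47 to -1.05. The GFP-RhoGDI2 A value lies just under the filter level, so the size of the fall in preparation A is uncertain. SERPINE2 set 2 read 3.35 and 3.29 in GFP-RhoGDI2 cells, against 3.30 and 3.27 in GFP cells. It was under the filter on every array and not tested.

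**Figure D3:**
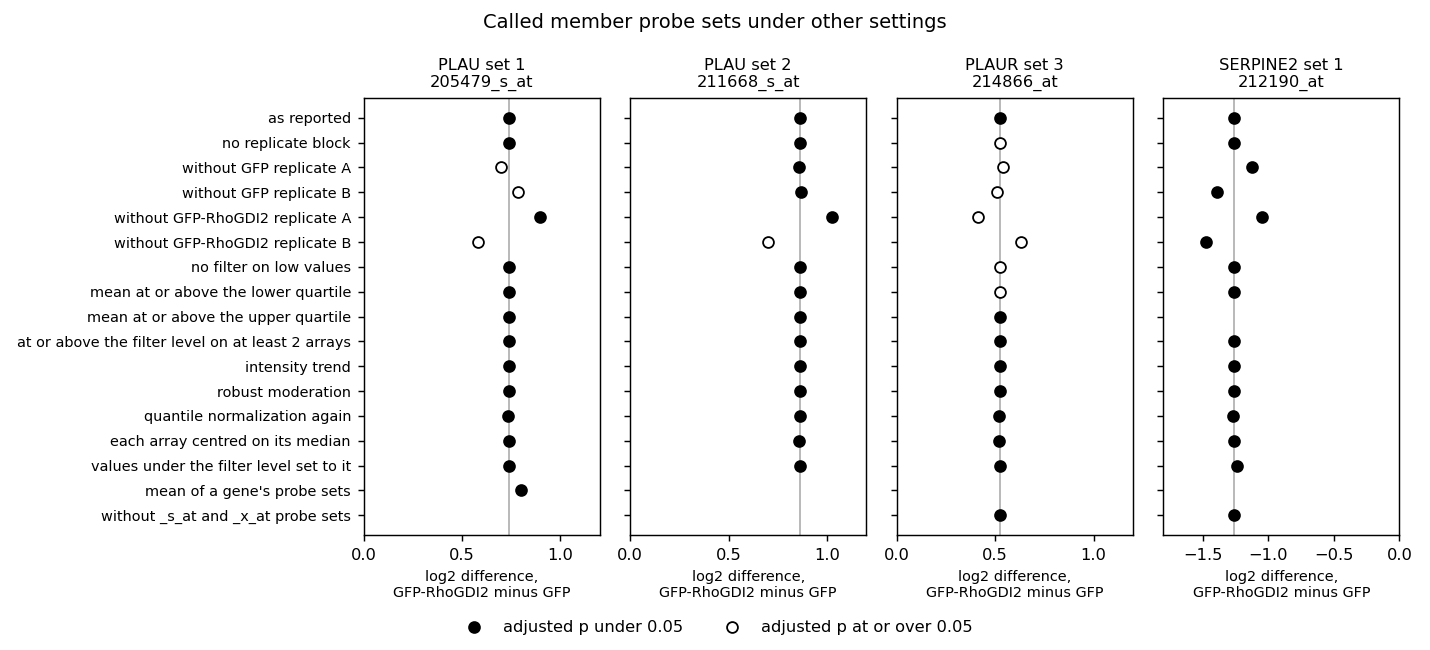
Log2 difference, GFP-RhoGDI2 minus GFP (horizontal axes), of the 4 called probe sets as reported and under each other design, filter or scaling (rows), at the same threshold; filled circles have an adjusted p under 0.05, open circles do not, and a missing circle means that the probe set was not tested under that setting. The row that averages all PLAU probe sets is drawn in the panel of PLAU set 1. SERPINE2 set 1 kept its call in every row where it was tested, while PLAUR set 3 lost it in 7 of them.

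The profiles most like those of the members were found by Euclidean distance between log2 values over the 4 arrays, each gene centred on its own mean, among the 12122 other tested genes. Nearest to PLAU were ASAH1, the acid ceramidase gene (distance 0.0194), INSIG1, a regulator of sterol synthesis (0.0732), and the collagen gene COL13A1 (0.0766), with differences of 0.73, 0.81 and 0.69. Nearest to SERPINE2 were EBI3, a cytokine subunit gene (0.205), the purinergic receptor gene P2RY1 (0.237) and AASS, of lysine breakdown (0.290), with differences of -1.09, -1.27 and -1.17. EBI3 and AASS had GFP-RhoGDI2 means of 4.36 and 4.4, under the filter level. Nearest to the representative PLAUR probe set were SLIRP-OT1 (0.0179), MDGA1 (0.0195) and HCST (0.0261), which shared its order of preparations and lay between -0.09 and -0.08. With 4 arrays, closeness shows a similar difference and spread only.

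Other genes around plasminogen activation were read in 7 lists, each gene represented by its brightest probe set on average. Of 81 distinct genes tested, 16 were called higher and 3 lower. Over all 12123 tested genes, 8.17% were called, 4.83% higher and 3.35% lower, and the median difference was -0.01. The lists were chosen with earlier results known, so they are described and not tested.

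**Figure D4:**
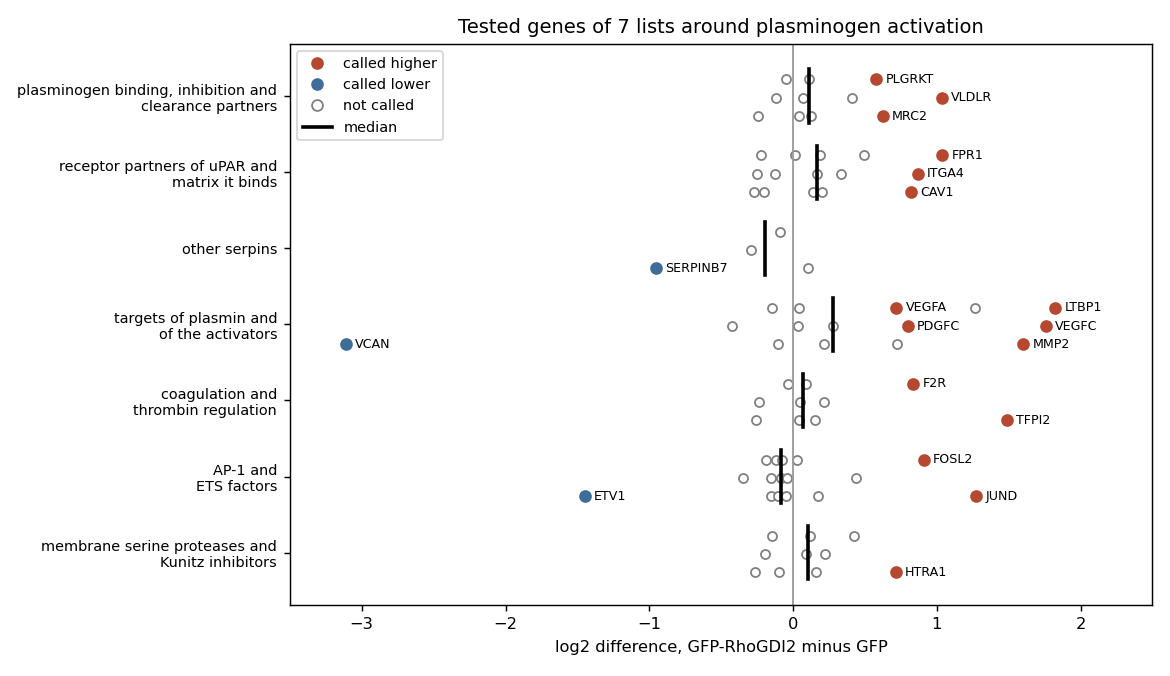
Log2 difference, GFP-RhoGDI2 minus GFP (horizontal axis), of the tested genes in 7 lists (rows); red circles were called higher, blue circles called lower, open circles were not called, and the black bar is the median of the list. Called genes are named; the medians run from -0.19 for other serpins to 0.28 for targets of plasmin and the activators.

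Of the genes that bind plasminogen, inhibit it or clear the activators, 11 of 21 measured were tested, and 3 rose and 0 fell, with a median difference of 0.11. VLDLR, an endocytic receptor that takes up urokinase bound to its inhibitor, averaged 8.17 ± 0.05 in GFP-RhoGDI2 and 7.13 ± 0.08 in GFP cells (SD, n = 2 each), a rise of 1.04 (adjusted p = 0.00456 with limma). MRC2, a collagen receptor that associates with the urokinase receptor, rose by 0.63, and PLGRKT, a plasminogen receptor of the plasma membrane, by 0.58. The calls of MRC2 and PLGRKT were lost without any 1 array (differences of 0.53 to 0.71, adjusted p = 0.0592 to 0.155), and the other MRC2 probe set differed by 0.09.

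Among partners of the urokinase receptor and the matrix it binds, 15 of 19 measured genes were tested, and 3 rose and 0 fell, with a median of 0.17. FPR1, a formyl peptide receptor that responds to urokinase receptor fragments, averaged 5.68 ± 0.24 in GFP-RhoGDI2 and 4.64 ± 0.09 in GFP cells (SD, n = 2 each), a rise of 1.04 with the GFP mean at the filter level. The integrin gene ITGA4 rose by 0.87 and the caveolin gene CAV1 by 0.82, each on both of its tested probe sets. Leaving out an array ended the call of ITGA4 for GFP-RhoGDI2 A (0.95, adjusted p = 0.0520) and GFP-RhoGDI2 B (0.79, adjusted p = 0.0927), and that of CAV1 for GFP-RhoGDI2 B (0.77, adjusted p = 0.0641).

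Most other serpin genes were low: 25 of 29 measured lay under the filter, and of the 4 tested, 0 rose and 1 fell, with a median of -0.19. SERPINB7, known from kidney mesangium and epidermis, averaged 9.49 ± 0.23 in GFP-RhoGDI2 and 10.45 ± 0.19 in GFP cells (SD, n = 2 each). It fell by 0.95 (adjusted p = 0.00608 with limma), a call lost without GFP A (-0.82, adjusted p = 0.0533) and without GFP-RhoGDI2 B (-0.79, adjusted p = 0.0958). SERPINB8 differed by -0.29 (adjusted p = 0.117).

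Among known or proposed targets of plasmin and the activators, 15 of 21 measured genes were tested, and 5 rose and 1 fell, with a median of 0.28. LTBP1, which tethers latent TGF-beta to the matrix, rose by 1.82 and the gelatinase gene MMP2 by 1.60. The growth factor genes VEGFC, PDGFC and VEGFA rose by 1.76, 0.80 and 0.72. The calls of PDGFC and VEGFA were lost without GFP-RhoGDI2 A (0.78 and 0.63, adjusted p = 0.0634 and 0.134) and without GFP-RhoGDI2 B (0.82 and 0.80, adjusted p = 0.0602 and 0.0883), and that of VEGFA without GFP B (0.60, adjusted p = 0.0813). VCAN, the matrix proteoglycan versican, fell by 3.11, with its GFP-RhoGDI2 mean of 3.80 under the filter level, so it passed the filter through the GFP arrays and the size of the fall is uncertain. With values under the filter level set to that level, the difference was -2.28 (adjusted p = 0.000251 with limma).

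Among genes of coagulation and thrombin regulation, 10 of 21 measured were tested, and 2 rose and 0 fell, with a median of 0.07. TFPI2, a Kunitz-type inhibitor of plasmin and other serine proteases, averaged 7.55 ± 0.26 in GFP-RhoGDI2 and 6.06 ± 0.01 in GFP cells (SD, n = 2 each), a rise of 1.49 (adjusted p = 0.00344 with limma), and its other probe set rose by 0.94. F2R, the receptor cut by thrombin, rose by 0.84 on 1 of its 2 tested probe sets. That call was lost without GFP A (0.70, adjusted p = 0.0794) and without GFP-RhoGDI2 B (0.69, adjusted p = 0.131), and the other F2R set differed by 0.05.

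Of 18 AP-1 and ETS transcription factor genes, families known to drive PLAU and PLAUR in other cells, 16 were tested, and 2 rose and 1 fell, with a median of -0.08. FOSL2 rose by 0.91, with 3 of its 5 probe sets called, though not without GFP-RhoGDI2 A (0.82, adjusted p = 0.0537). JUND rose by 1.28 on 1 probe set, while the other differed by -0.04 near the filter level. ETV1, an ETS factor, fell by 1.45 on 1 of its 4 probe sets, and the rest differed by -0.38 to -0.63.

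Of 16 genes of membrane serine proteases, related proteases and Kunitz inhibitors, 10 were tested, and 1 rose and 0 fell, with a median of 0.10. HTRA1, a secreted serine protease, rose by 0.71, a call lost without GFP A (0.73, adjusted p = 0.0730), GFP B (0.70, adjusted p = 0.0775) or GFP-RhoGDI2 B (0.55, adjusted p = 0.141). PRSS23, another secreted serine protease, differed by 0.42 on its brightest probe set (adjusted p = 0.0616), and its other 2 sets rose by 0.56 and 0.74.

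Some epithelial and mesenchymal markers also differed between the lines. Of 18 urothelial and epithelial markers measured, 6 passed the filter, and 1 rose and 2 fell. The keratin genes KRT8 and KRT18 fell by 1.23 and 0.59, and the nuclear receptor gene PPARG rose by 1.27, with its GFP mean of 4.54 under the filter level. KRT7 and GATA3 passed the filter, whereas EPCAM, CDH1 and KRT20 lay under it on all arrays and were not shown to be above background. UPK1A differed most among the untested epithelial markers. It read 4.95 and 4.55 in GFP-RhoGDI2 cells, against 4.18 and 4.03 in GFP cells, with a mean of 4.43 under the filter level. The summed unlogged level of the 18 genes was 8862 and 9035 in GFP-RhoGDI2 cells, against 13589 and 13582 in GFP cells, and KRT18 alone made up 8132 and 8371 of it in GFP-RhoGDI2 cells, against 12387 and 12484 in GFP cells. Without KRT18 the sum was 731 and 664 in GFP-RhoGDI2 cells, against 1201 and 1098 in GFP cells. KRT8, which fell, is the brightest gene left in that sum, and a sum without both KRT8 and KRT18 was not computed. The other tested epithelial markers KRT7, GATA3 and CDH3 differed by -0.15, -0.20 and -5.7e-05 and were not called. The lower sum therefore does not show a fall across these markers. Of 15 mesenchymal markers 9 passed, and 2 rose and 0 fell. SNAI2 rose by 2.03 and CDH2 by 0.68 on 1 of its 2 tested probe sets, while the other CDH2 set differed by 0.49 (adjusted p = 0.0644). The summed level of the 15 genes was 19025 and 18515 in GFP-RhoGDI2 cells, against 17320 and 15966 in GFP cells. Most of that sum was VIM, the vimentin gene, which was not called (0.18, adjusted p = 0.291) and is named here because it dominates the sum. Without VIM the sum was 2637 and 3085 in GFP-RhoGDI2 cells, against 2540 and 2551 in GFP cells. The calls of KRT18 (-0.57 to -0.61, adjusted p = 0.0721 to 0.118) and of CDH2, except without GFP A (0.62 to 0.72, adjusted p = 0.0643 to 0.113), were lost when 1 array was left out. The part of these markers in the PLAU, PLAUR and SERPINE2 differences was not tested.

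Markers of other cell types were mostly under the filter. Of 9 macrophage and monocyte markers 1 was tested (AIF1, -0.15), and of 8 lymphoid and blood cell markers 1 was tested (HBB, -0.09), with neither called. CD14, PTPRC and CDH5 were under the filter on all arrays. Of 9 endothelial markers 3 were tested. ENG, a TGF-beta co-receptor also made by other cells, fell by 0.58 on 1 of its 2 tested probe sets, a call lost without the block (adjusted p = 0.0736), without GFP A (-0.42, adjusted p = 0.220) and without either GFP-RhoGDI2 array (-0.68 and -0.48, adjusted p = 0.138 and 0.275), and the other ENG set differed by -0.03. TIE1 differed by -0.08. The summed unlogged level of the 9 endothelial markers was 315 and 290.0 in GFP-RhoGDI2 cells, against 421 and 350.0 in GFP cells. Without ENG it was 159 and 154 in GFP-RhoGDI2 cells, against 178 and 155 in GFP cells. That of the 9 macrophage markers was 146 and 141 in GFP-RhoGDI2 cells, against 147 and 148 in GFP cells, and that of the 8 lymphoid and blood cell markers was 132 and 129 in GFP-RhoGDI2 cells, against 129 and 135 in GFP cells. The part of these markers in the results was not tested.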

How the data were processed

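The authors deposited log2 values per probe set, which the submitters' processing notes credit to RMA. The sources used here do not give its software, its version or which arrays were normalized together. No further normalization was applied. Of 54675 probe sets, 62 controls were left out. The platform annotation named 1 gene for 41091, several for 1801 and did not list 11721, and only probe sets with 1 gene were named. Probe sets with a mean at or above 4.637 were fitted with limma 3.58.1 in R 4.3.3 (lmFit, eBayes), with preparation as a block because the sample descriptions and the series' design state that same-lettered replicates were prepared together. Benjamini-Hochberg adjustment ran over all 27307 tested probe sets. Each fit had 1 residual degree of freedom, moderated with 4.71 prior degrees of freedom and a prior SD of 0.101. Across probe sets, the difference between preparations in one group correlated at 0.264 with that in the other. An exact permutation over 2 pairs cannot go below p = 0.5. The fit was also run on simulated data whose spread was drawn from the prior fitted to these arrays. Such a run checks the code and cannot show that the p-values hold for these data.

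Members and lists were chosen with earlier results of these data known. Text names the 5 genes, ARHGDIB, 3 nearest profiles a gene, and from each list the called genes (up to 6 a direction), with the 2 largest changes where fewer than 2 were called. KRT7, GATA3, CDH3, UPK1A, EPCAM, CDH1, KRT20, CD14, PTPRC, CDH5 and VIM were named as marker levels after their values were seen. Genes on the lists that matched no probe set were not analysed here. RefSeq windows were searched on both strands, and all 3 genes with a tested probe set matched. Alternatives were other designs, arrays left out, filters, moderation, scaling and thresholds.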

Additional observations from a re-analysis of the deposited data

How the results depend on the processing

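No probe set of PLAU, PLAUR or SERPINE2 that was called changed direction under any alternative. Most alternatives could not have shown a change. The block, filters, moderation and thresholds leave a probe set's difference as it is. Leaving out 1 array cannot reverse groups whose values do not overlap, as in these probe sets. The 2 uncalled PLAUR probe sets took either sign, from -0.20 to 0.03 and from -0.14 to 0.13 when 1 array was left out. Leave-one-array fits had no replicate block, since the block leaves them no residual degree of freedom, so they rest on fewer arrays and another design at once. Their differences ran from 0.58 to 0.90 for PLAU set 1, 0.70 to 1.03 for PLAU set 2, 0.41 to 0.63 for PLAUR set 3 and -1.47 to -1.05 for SERPINE2. Without the replicate block on all arrays, PLAUR set 3 kept its difference of 0.52 and lost its call, as it did with no filter and with the filter at the lower quartile (adjusted p = 0.0649). At a threshold of 0.01 the calls of both PLAU sets (0.74 and 0.86), PLAUR set 3 (0.52) and SERPINE2 (-1.26) were lost. Neither PLAU set could be tested without _s_at and _x_at probe sets, and SERPINE2 passed neither the upper-quartile filter nor the filter on gene means.

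Calls over all features depended more on the setting. The 2085 probe sets and 991 genes called became 1284 and 641 without the block, 3435 and 1876 above the upper quartile, 5721 and 2879 with an intensity trend, 3395 and 1575 with arrays centred on their medians, 447 and 243 at 0.01, and 4264 and 1971 at 0.10. Without _s_at and _x_at sets 1340 probe sets were called, and with gene means 2430 genes. With 1 array left out, 422 to 909 probe sets and 215 to 419 genes were called. Between preparations, 0 probe sets were called with limma, 367 with an intensity trend and 1 with centred arrays; no other setting called any. The causes were not tested. Of the 25 called list and marker genes, 24 kept their call without the block and 25 with no filter, and 0 reversed. Many of the settings leave a difference unchanged, so those could not have reversed it. With 4 arrays and no detection calls, PLAT and the second SERPINE2 probe set are limited by signal near background.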
